A study of Bos taurus with 27 samples.

Results

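The insulin-like growth factor (IGF) axis in the rumen epithelium (RE) was followed through 10 genes: the ligands IGF1 and IGF2, the receptors IGF1R, IGF2R and INSR, the adaptor IRS1, and the binding proteins IGFBP3, IGFBP4, IGFBP5 and IGFBP6. A gene was included where a non-control probe of the microarray carried its symbol, which gave 10 probes, 1 per gene, of 15008 non-control probes on the array.

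The RE of 9 Japanese Black cattle was sampled at 3 fattening stages and each sample was hybridized to its own one-colour bovine oligonucleotide array, giving 27 arrays. The early, middle and late samples were taken at 14, 21 and 29 months of age. The first period compared the middle with the early stage, the second period the late with the middle stage, and the total period the late with the early stage. The first and second periods share the middle arrays, and the total period shares arrays with both, so that the 3 sets of changes are not independent. All animals were bulls castrated as calves and later fitted with a rumen fistula, all were fed concentrate with rice straw throughout, and the concentrate share of the diet was larger at the middle and late stages than at the early stage. No group of the same age on another diet was analysed here, so that age, length of feeding and diet composition cannot be told apart. The tissue came from a punch biopsy of the ventral sac.

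IGF1 and IGF2 are secreted peptides that act mainly through IGF1R, a receptor tyrosine kinase closely related to the insulin receptor INSR, with IRS1 carrying the signal from both receptors to phosphoinositide 3-kinase. IGF2R, also known as the cation-independent mannose 6-phosphate receptor, has no kinase activity, takes up IGF2 for degradation and sorts lysosomal enzymes. The binding proteins hold the ligands outside the cell and either limit or prolong their action. In ruminants the axis is known as a regulator of epithelial growth when concentrate feeding begins.

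Each probe is a 60-base oligonucleotide, and the sequences below show what the central results read. The probes of IGF1R, IGFBP3 and IGFBP5 are given whole because their transcripts moved in opposite directions, with positions in the bovine build UMD 3.1 as the array files give them. The IGF1R probe lies on the plus strand at chr21:8267711-8267770, the IGFBP5 probe on the minus strand at chr2:105379127-105379186, and the IGFBP3 probe on the plus strand spans 534 bases of the genome (chr4:76708763-76709296), so that it joins 2 exons. The place of the other probes within their genes was not analysed here. The capitals in IGFBP5 mark its last 3 bases, the stop codon of the reading frame.
IGF1R: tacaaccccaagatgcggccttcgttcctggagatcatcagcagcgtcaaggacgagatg
IGFBP3: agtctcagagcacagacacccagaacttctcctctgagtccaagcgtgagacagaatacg
IGFBP5: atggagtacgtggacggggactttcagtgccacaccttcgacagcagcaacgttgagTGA

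The IGFBP4 probe (chr19:41337314-41337373, plus strand) had another composition, and G or T made up 78.3% of its bases. It held a run of at least 10 bases in which G and T alternate, as did the probes of MCAM, TYK2 and S1PR2, the genes whose pattern over the 27 arrays came closest to that of IGFBP4. The IGFBP4 and MCAM probes also shared an identical run of 24 bases. In the other 9 members the longest alternation was 4 bases, and the longest run shared with any other probe was 12 to 15 bases.

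Levels are log2 processed signals minus the median of the array, so that 0 is the level of the median probe, and changes are differences of these levels (log2 fold change). A probe counted as detected on an array where Feature Extraction set it well above background, and as detected throughout a stage where that held for all 9 animals. A probe was called a differentially expressed gene (DEG) where the adjusted p of limma, fitted with the animal as a block and adjusted over all 15008 probes, was below 0.05. The middle arrays were dimmer than the others. Their median processed signal was 8.05 to 28.1, against 34.5 to 47.5 at the early and 31.4 to 45.9 at the late stage, and 48.5% to 71.5% of probes were well above background, against 68.8% to 78.1% and 68.4% to 73.7%. The lowest level that still counted as well above background was accordingly higher at the middle stage (median over 9 arrays -1.72) than at the early (-2.99) and late (-2.96) stages. The epithelial keratins KRT5 and KRT14 were well above background on all 27 arrays, at mean levels of 9.24 and 8.16 at the early stage, whereas KRT4 was well above background on no array. Of the red cell genes, HBB was well above background on at most 1 array of a stage, whereas HBA and AHSP were on all 27 arrays. The summed level of HBA and AHSP ranged from 6.73 to 7.64 at the middle stage, above 5.32 to 6.11 at the early and 5.53 to 6.53 at the late stage. The fibroblast gene DCN and the smooth muscle gene ACTA2 were well above background on all arrays, so that markers of the tissue below the epithelium were read too. In such bulk tissue, fewer cells of a type and less RNA per cell cannot be told apart.

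Stage was partly confounded with the slide that held the arrays. The early arrays of animals 1 to 8 shared slide 1, early animal 9 and middle animals 1 to 7 shared slide 2, and middle animals 8 and 9 were on slide 3. The late arrays were on slides 4 and 5, which held no other stage. For the second and total periods stage and slide therefore cannot be told apart, and for the first period they are linked by 1 early array alone.

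IGF1R, IGF2R and IGFBP3 fell in the first and rose in the second period, IGFBP5 and IGFBP6 did the reverse, IGFBP4 fell in the second period, and INSR was not called. In the first period 7 of the 10 members were DEGs, 4 higher and 3 lower, where 66.5% of all probes were called (45.3% higher and 21.3% lower). In the second period 8 were DEGs, 3 higher and 5 lower, where 71.5% of all probes were called (27% higher and 44.6% lower). In the total period 2 were DEGs, IGF2R higher and IGFBP4 lower, where 20.1% of all probes were called (11.2% higher and 8.93% lower). The shares of members called in each of the 3 periods were thus near those of the whole array. Of the 7 members detected throughout at least 1 stage (IGF1R, IGF2R, INSR and the 4 binding proteins), DEGs numbered 5, 6 and 2 in the 3 periods, against 61.7%, 66.9% and 24.5% of the 10165 probes that passed the same filter. The median change of the 10 members was 0.07, -0.63 and 0.10 in the first, second and total periods, and the median over all probes was 0.32, -0.27 and 0.03.

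**Figure D1:**
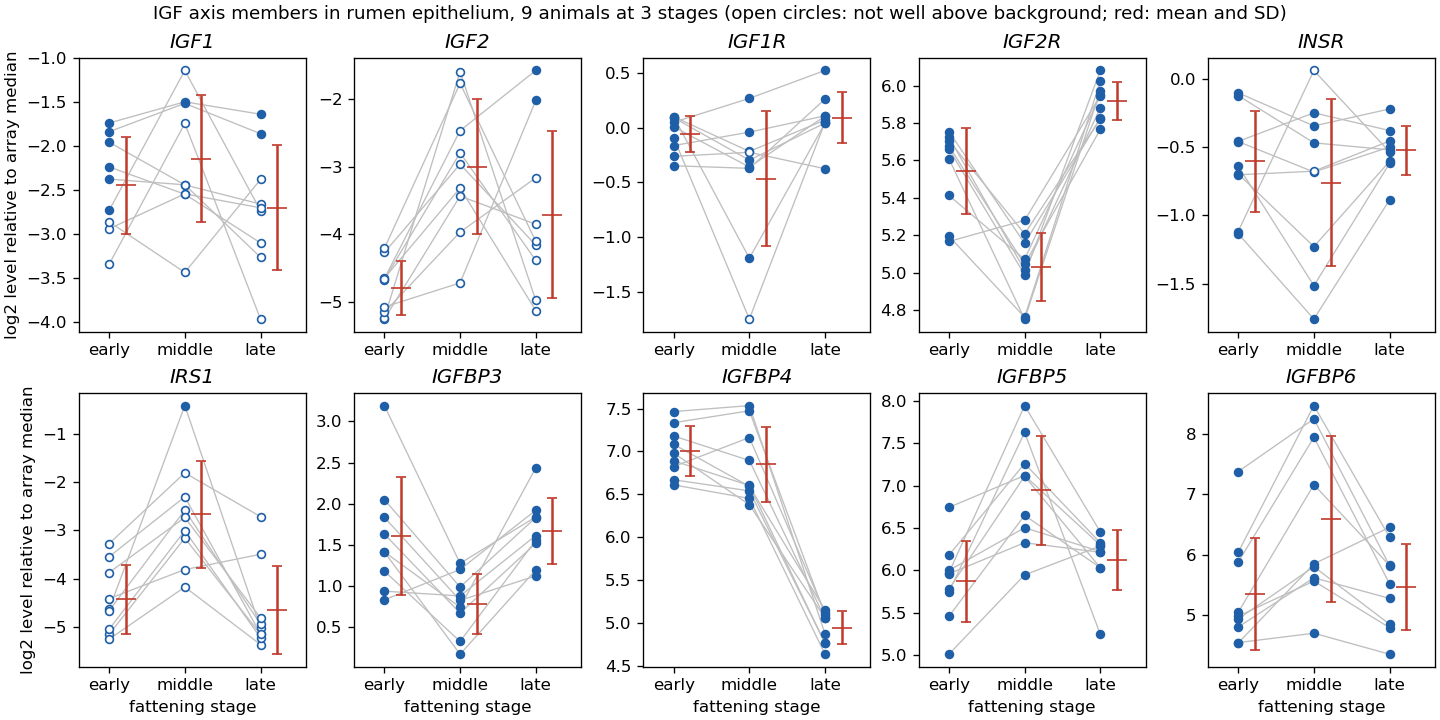
Level of each member (log2 relative to the array median, y axis; scales differ between panels) at the early, middle and late stages for 9 animals, joined by grey lines; open circles are arrays where the probe was not well above background and red marks are the mean and SD. IGFBP4 dropped between the middle and late stages in every animal, IGF2R was lowest at the middle and highest at the late stage, and IGFBP5 and IGFBP6 peaked at the middle stage.

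**Figure D2:**
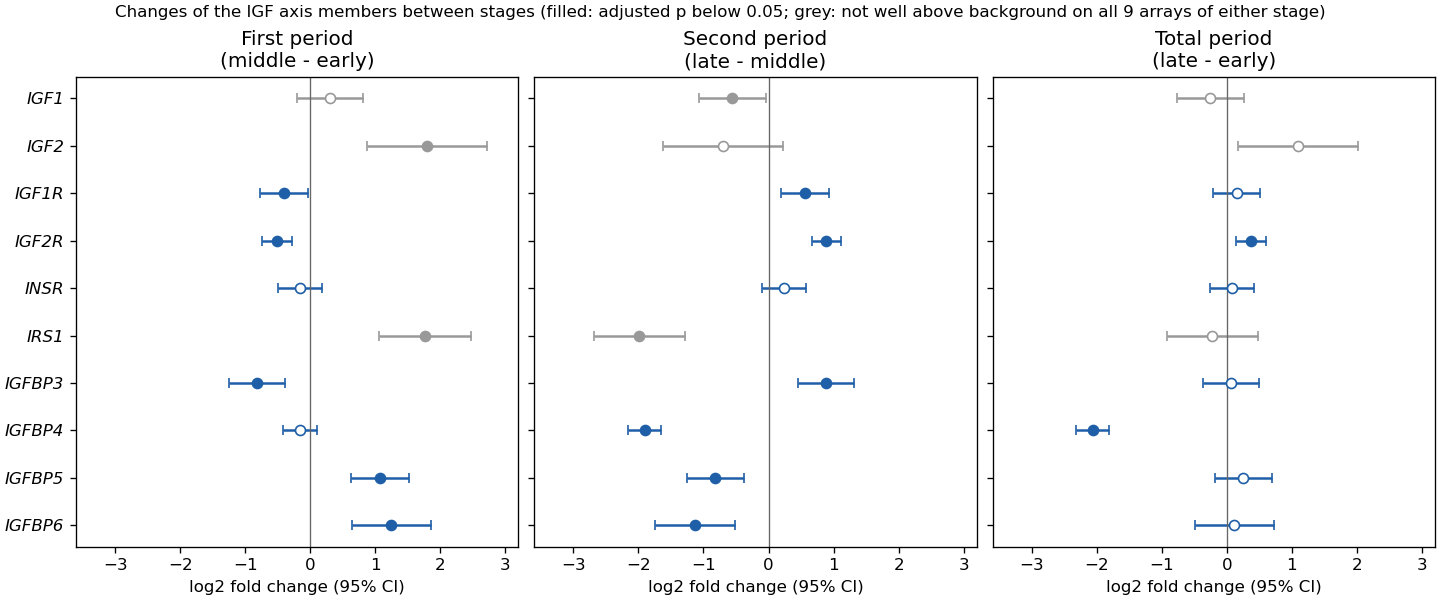
Log2 fold change of the 10 members with its 95% confidence interval (x axis) in the first, second and total periods; filled circles have an adjusted p below 0.05 and grey marks members detected throughout neither stage. In the total period only IGF2R (0.37) and IGFBP4 (-2.06) were filled, and most other members lay on opposite sides of 0 in the first and second periods.

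The ligands were at the limit of detection. IGF1 was well above background on 6, 2 and 2 of 9 arrays at the early, middle and late stages. Its level ran from -3.34 through a median of -2.37 to -1.74 at the early stage, from -3.43 through -2.44 to -1.14 at the middle stage, and from -3.96 through -2.70 to -1.64 at the late stage. The 3 ranges overlapped almost wholly. The change was 0.30 (SE 0.24, adjusted p = 0.282) in the first and -0.25 (SE 0.24, adjusted p = 0.524) in the total period. In the second period it was -0.56 (SE 0.24, adjusted p = 0.0489, lower in 8 of 9 animals), and the call was lost when any animal other than animal 8 was left out (-0.76 to -0.35 over the 9 fits). IGF2 was well above background on no early or middle array and on 2 late arrays. Its adjusted p of 0.00164 in the first period therefore concerned signals that were not well above background on any of the 18 arrays, and no size is given for it. The second and total periods gave adjusted p values of 0.158 and 0.0906.

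IGF1R, the signalling receptor, was lowest at the middle stage. Its level ran from -0.35 through a median of 0.0066 to 0.10 at the early stage, from -1.75 through -0.30 to 0.27 at the middle stage, and from -0.38 through 0.07 to 0.52 at the late stage, and the probe was well above background on 9, 7 and 9 arrays. The ranges overlapped, with middle animal 4 at the lowest level. In the first period IGF1R fell by 0.41 on the log2 scale (SE 0.18, adjusted p = 0.0472, lower in 6 of 9 animals), a call that was lost without animal 1, 2, 3, 4 or 5 in turn (-0.42 to -0.25) and under most other settings. In the second period it rose by 0.56 (SE 0.18, adjusted p = 0.00821, higher in 8 of 9 animals). The late and early levels did not differ by the test (0.15, 95% confidence interval -0.22 to 0.52, adjusted p = 0.618).

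IGF2R, the scavenging receptor of IGF2, was well above background on all 27 arrays. Levels ran from 5.17 through a median of 5.66 to 5.75 at the early stage, from 4.75 through 5.04 to 5.28 at the middle stage, and from 5.77 through 5.95 to 6.08 at the late stage. The late range lay above both others, by 0.49 over the middle and by 0.012 over the early range, whereas the early and middle ranges overlapped. The median processed signals were 1908, 575 and 2327. IGF2R fell by 0.51 in the first period (SE 0.11, adjusted p = 0.000453, lower in 8 of 9 animals) and rose by 0.89 in the second period (SE 0.11, 1.85-fold, adjusted p = 1.09e-06, higher in 9 of 9 animals). In the total period it rose by 0.37 (SE 0.11, adjusted p = 0.0199, higher in 9 of 9 animals). The total-period call was lost without animal 5 (0.35, adjusted p = 0.0605) or animal 6 (0.32, adjusted p = 0.0722), and under the 75th percentile scaling (0.25, adjusted p = 0.0575).

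INSR, the insulin receptor, was not a DEG in any period. Levels were spread from -1.13 through a median of -0.64 to -0.10 at the early stage, from -1.76 through -0.68 to 0.06 at the middle stage, and from -0.89 through -0.52 to -0.22 at the late stage. The ranges overlapped and the middle stage was the widest. The changes were -0.16 (95% confidence interval -0.49 to 0.17), 0.24 (-0.10 to 0.57) and 0.08 (-0.25 to 0.41) in the first, second and total periods, with adjusted p values of 0.386, 0.187 and 0.795. Without animal 9 the first-period change was -0.33 (adjusted p = 0.0323) and the second-period change 0.34 (adjusted p = 0.0233).

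IRS1, the adaptor, was well above background on 1 of the 27 arrays, that of middle animal 4. The level ran from -5.26 through a median of -4.64 to -3.28 at the early stage, from -4.18 through -2.74 to -0.42 at the middle stage, and from -5.37 through -5.02 to -2.72 at the late stage. It was called in the first (adjusted p = 0.000173) and second (adjusted p = 3.73e-05) periods, but 8 of the 9 middle arrays were not well above background and its middle-stage mean (-2.67) lay below the median detection limit of that stage (-1.72), so that no size is given. The growth hormone receptor GHR, which was well above background on no array, had fitted changes of 1.65 and -1.62 in the same periods. The middle arrays, on which these fitted levels were higher, were also the dimmer ones, and the part of array brightness in the calls of IGF2 and IRS1 was not tested.

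IGFBP3, the main carrier of IGFs in blood, was lowest at the middle stage. Levels lay from 0.84 through a median of 1.42 to 3.19 at the early stage, from 0.18 through 0.83 to 1.28 at the middle stage, and from 1.13 through 1.62 to 2.44 at the late stage. All 27 arrays were well above background, the ranges overlapped, and early animal 6 stood highest. IGFBP3 fell by 0.82 in the first period (SE 0.21, 1.77-fold, adjusted p = 0.002, lower in 8 of 9 animals) and rose by 0.88 in the second period (SE 0.21, 1.84-fold, adjusted p = 0.000887, higher in 9 of 9 animals). The late and early levels did not differ by the test (0.06, 95% confidence interval -0.37 to 0.49, adjusted p = 0.889). Within slide 2 the first-period change was -0.017 (adjusted p = 0.986), and with a fixed slide term it was 0.68 (adjusted p = 0.684), both with 1 early array as the link. The summed level of the stratified epithelium markers (13 of the 14 on the array) was also lowest at the middle stage, with ranges of 11.6 to 12.1, 9.70 to 12.2 and 11.7 to 12.2 at the early, middle and late stages, and its part in the changes of IGFBP3, IGF1R and IGF2R was not tested.

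IGFBP4, a binding protein that mostly restrains IGF action, showed the largest total-period change of the members. Its level ran from 6.61 through a median of 6.98 to 7.47 at the early stage, from 6.38 through 6.60 to 7.54 at the middle stage, and from 4.63 through 5.05 to 5.15 at the late stage. The late range lay below the middle range by 1.23 and below the early range by 1.46, and all 27 arrays were well above background. The median processed signals were 4814, 2132 and 1175. The first-period change was -0.16 (SE 0.12, adjusted p = 0.266). IGFBP4 fell by 1.91 in the second period (SE 0.12, 3.75-fold, adjusted p = 4.31e-10, lower in 9 of 9 animals) and by 2.06 in the total period (SE 0.12, 4.18-fold, 95% confidence interval -2.32 to -1.81, adjusted p = 6.95e-10, lower in 9 of 9 animals). Of the 15008 probes, 43 had a lower total-period change. The total-period call was kept under each of the 20 alternative settings run, with changes of -2.26 to -1.77. The groups of 2 members, IGF2R and IGFBP4, did not overlap in the second period nor in the total period, where 20.7% and 6.55% of all probes did not overlap. In the first period no member had groups that did not overlap, against 13% of all probes.

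Several probes that shared the G and T alternation with IGFBP4 also fell in the total period, an observation made after the values were seen. The cutoff of 10 bases used below is the length of the alternation in the IGFBP4 probe itself. TYK2, MCAM and S1PR2, named for their likeness to IGFBP4, are among the probes counted. An alternation of at least 10 bases on the probe strand was held by 26 of 15008 probes (0.173%), and the corresponding alternation of A and C, which is the same motif on the other strand, by 7 probes (0.0466%). Of the 20 probes other than IGFBP4 that held the G and T alternation and were detected on all 27 arrays, 12 fell and 0 rose in the total period (median change -0.50). Of the 6507 such probes with an alternation of at most 5 bases, 7.79% fell and 18.2% rose (median change 0.14), and of the 269 with 6 to 9 bases 7.43% fell and 14.5% rose. TYK2, MCAM and S1PR2 correlated with IGFBP4 at r = 0.989, 0.985 and 0.971 over the 27 arrays and ranked highest among 6555 candidate probes. Their total-period changes were -1.85, -2.35 and -1.34. PBXIP1 (r = 0.968) and KANK2 (r = 0.959), which hold it too, changed by -1.30 and -2.14. Not every such probe fell, since IMPAD1 changed by 0.34 (adjusted p = 0.062). Whether the IGFBP4 probe read IGFBP4 transcripts alone was not tested. MCAM also marks endothelium and other vessel cells, and of the 10 endothelial markers 0 were higher, 3 lower and 7 not called in the total period (median change -0.04). TIE1 fell by 1.55 and PECAM1 by 0.73, and the third, CDH5, was well above background on no array. Among those not called, VWF (0.04), ENG (0.03), EMCN (0.07) and CLDN5 (0.26) lay above 0, and KDR (-0.26) and TEK (-0.05) below it. The summed level of the endothelial markers (9 of the 10 on the array) ranged from 5.34 to 6.30, from 5.65 to 6.79 and from 5.74 to 6.42 at the early, middle and late stages. Its part in the IGFBP4 result was not tested.

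**Figure D3:**
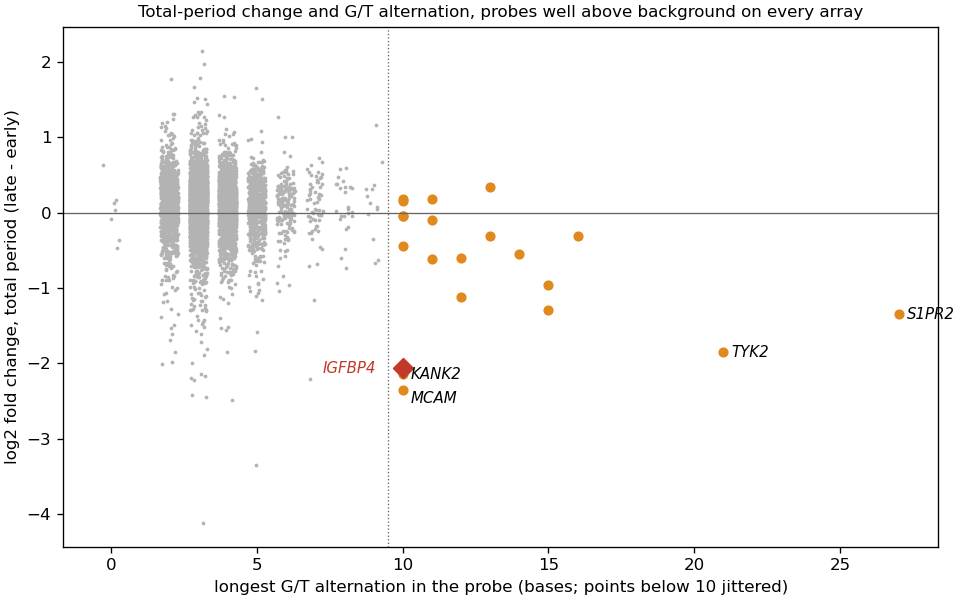
Total-period log2 fold change (y axis) against the longest run of alternating G and T in each probe (x axis, bases) for the probes detected on all 27 arrays; grey points have less than 10 bases, orange points at least 10, and the red diamond is IGFBP4. Of the 20 orange points 12 were DEGs with lower levels at the late stage and none was a DEG with higher levels, and IGFBP4 (-2.06) lay next to KANK2 (-2.14) and MCAM (-2.35).

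IGFBP5, a binding protein of connective tissue and muscle, peaked at the middle stage relative to the array median. Individual levels ran from 5.01 through a median of 5.96 to 6.74 at the early stage, from 5.95 through 7.11 to 7.95 at the middle stage, and from 5.25 through 6.22 to 6.46 at the late stage. All 27 arrays were well above background, and the ranges overlapped. The median processed signals, before scaling, were 2553, 2233 and 2844, so that the peak appeared once the dimmer middle arrays were scaled. IGFBP5 rose by 1.07 in the first period (SE 0.21, 2.10-fold, adjusted p = 0.000233, higher in 9 of 9 animals) and fell by 0.82 in the second period (SE 0.21, adjusted p = 0.00183, lower in 8 of 9 animals). With normexp background correction the changes were 0.42 (adjusted p = 0.2) and 0.018 (adjusted p = 0.956). The total-period change was 0.25 (95% confidence interval -0.19 to 0.69, adjusted p = 0.45).

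IGFBP6, which binds IGF2 in preference to IGF1, also peaked at the middle stage relative to the array median. Of the 7 members detected throughout a stage it had the widest spread between animals at each stage (SD 0.93, 1.38 and 0.71). Individual levels lay from 4.53 through a median of 4.98 to 7.37 at the early stage, from 4.70 through 5.85 to 8.47 at the middle stage, and from 4.35 through 5.52 to 6.45 at the late stage. The ranges overlapped, and all 27 arrays were well above background. The median processed signals, before scaling, were 1255, 953 and 1773, so that the unscaled median was lowest at the middle stage. IGFBP6 rose by 1.25 in the first period (SE 0.29, 2.37-fold, adjusted p = 0.00107, higher in 9 of 9 animals) and fell by 1.13 in the second period (SE 0.29, 2.19-fold, adjusted p = 0.00188, lower in 8 of 9 animals). With normexp background correction neither was called (0.79, adjusted p = 0.124, and -0.47, adjusted p = 0.333). The total-period change was 0.11 (95% confidence interval -0.49 to 0.72, adjusted p = 0.846).

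At the middle stage animals 2, 5, 6 and 7 had IGFBP6 levels of 7.94, 8.47, 8.25 and 7.16, and the other 5 animals lay between 4.70 and 5.85. At the early stage the same 4 animals were the highest, at 5.87, 6.04, 7.37 and 5.04. At the late stage animal 9, the lowest at the early stage (4.53), was the highest (6.45). The summed level of the fibroblast markers (12 of the 13 on the array) was highest in the same 4 animals at the middle stage, at 10.1, 9.65, 10.5 and 9.51. The same 4 animals did not lead that sum at the other stages. At the early stage animal 7 ranked 8 of 9 in the sum (8.37), whereas animal 6 was highest in both the sum (10.1) and IGFBP6. At the late stage animal 9 was highest in both (sum 9.30). Animal 1 was lowest in both at the late stage (sum 6.88, IGFBP6 4.35). Over the 9 animals that sum ranged from 7.02 to 10.1, from 7.09 to 10.5 and from 6.88 to 9.30 at the early, middle and late stages, with medians of 8.70, 9.32 and 8.82, and of these markers PDGFRB was well above background on no middle array. The summed smooth muscle markers (5 of the 9 on the array) ranged from 7.48 to 9.05, from 8.06 to 10.3 and from 7.65 to 8.43. Of the 9 measured markers 6 were higher in the first period and 8 lower in the second, against 45.3% and 44.6% of all probes. Of the 5 markers detected throughout a compared stage, 4 were higher and then 5 lower, against 30.7% and 26.7% of such probes. Among them CALD1 changed by 1.57 and -1.63 and ACTA2 by 0.71 and -0.97 in the first and second periods. COL1A1 changed by 0.57 and -0.90, LUM by -1.12 and 1.62, and DCN did not pass the test in either period (0.39 and 0.0056). Of the 13 fibroblast markers, 2 were higher and 2 lower in the first period and 2 higher and 4 lower in the second. The shares of all probes were 45.3% higher and 21.3% lower, then 27% higher and 44.6% lower. HBA changed by 1.22 and -1.13. The part of all these markers in the changes of IGFBP5 and IGFBP6 was not tested.

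**Figure D4:**
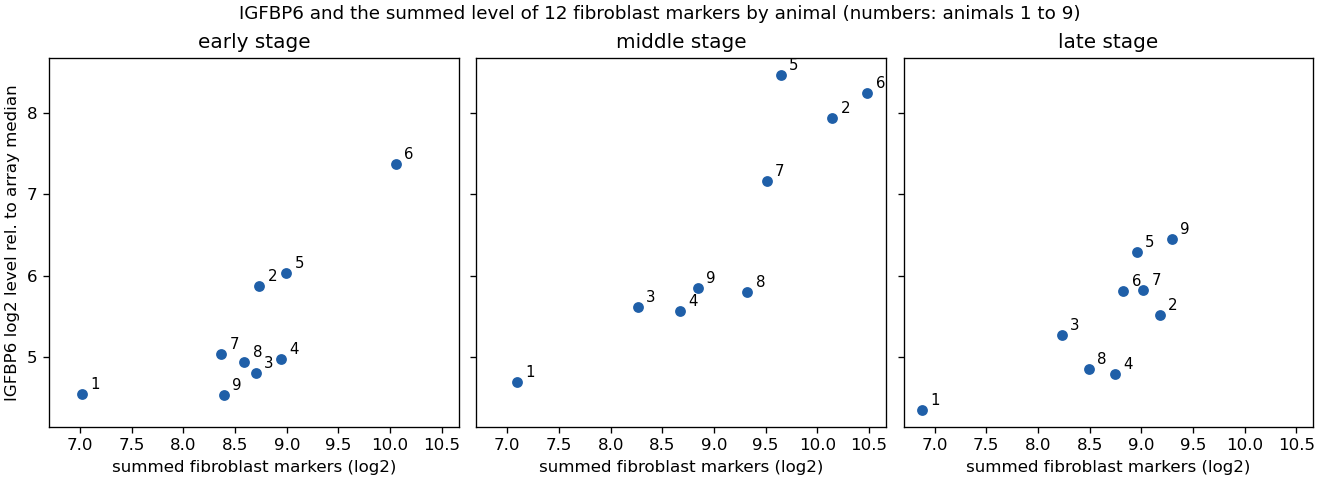
IGFBP6 level (y axis, log2 relative to the array median) against the summed level of 12 fibroblast markers (x axis, log2) at the early, middle and late stages, with each of the 9 animals numbered. At the middle stage animals 2, 5, 6 and 7 stood highest on both axes.

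Pairs of members with related roles were compared for their change within each animal, which a value subtracted from the whole array cannot alter. Of 6 pairs, IGF1 with IGF2 and INSR with IRS1 were not run because a member was not well above background, and 4 pairs in 3 periods gave 12 exact sign-flip permutation tests (two-sided). The changes of IGFBP3 and IGFBP4 differed in the second period by 2.79 (SD 0.47, n = 9, exact permutation p = 0.00391, adjusted over the 12 tests 0.0234) and in the total period by 2.12 (SD 0.88, n = 9, exact permutation p = 0.00391, adjusted 0.0234). The change of IGFBP3 lay above that of IGFBP4 in 9 of 9 animals in both periods. The p of 0.00391 is the smallest that 9 animals can give. In the second and total periods these tests cannot tell stage and slide apart, since the late arrays were on slides of their own. In the first period IGFBP3 fell by 0.66 more than IGFBP4 (-0.66, 95% confidence interval -1.25 to -0.08, exact permutation p = 0.0273, adjusted 0.109). The other 9 comparisons did not pass. The interval of IGF1R minus IGF2R was -0.31 to 0.52, -0.77 to 0.11 and -0.54 to 0.09 in the first, second and total periods, and that of IGF1R minus INSR was -0.93 to 0.43, -0.33 to 0.97 and -0.21 to 0.35. For IGFBP5 minus IGFBP6 the intervals were wider, at -0.94 to 0.59, -1.04 to 1.67 and -0.94 to 1.21.

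For the other members measured on all arrays, the genes with the most similar pattern were named by Pearson's r over the 27 arrays, which share animals, slides and scaling. IGF2R was followed most closely by TRAF6 (r = 0.953), TSPAN14 (r = 0.950) and AP3M1 (r = 0.950). IGFBP3 was followed by CXCR7, now named ACKR3 (r = 0.775), SERPINB2 (r = 0.766) and TM4SF1 (r = 0.762). Of these, SERPINB2 (-1.58 and 1.66) and TM4SF1 (-2.09 and 2.03) changed more than IGFBP3 in the first and second periods. IGFBP5 was followed by NT5C (r = 0.904), MRPS26 (r = 0.904) and CACNG1 (r = 0.894). IGFBP6 was followed by THBS3 (r = 0.910), SFXN3 (r = 0.906) and DSE (r = 0.905), and these changed by 0.75 to 0.97 and by -0.96 to -0.66 in the first and second periods.

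The remaining genes of the axis were read from a list of 76, of which 69 were on the array. In the first period 31 were higher and 18 lower, in the second 23 higher and 25 lower, and in the total period 11 higher and 4 lower. Their median changes were 0.28, 0.0077 and 0.09, beside 0.32, -0.27 and 0.03 over all probes. Of the list genes detected throughout a compared stage, 16 of 49 were higher and 17 lower in the first period, 22 of 48 higher and 8 lower in the second, and 10 of 50 higher and 3 lower in the total period. The shares of all probes passing the same filter were 30.7% higher and 31.1% lower, 40.1% and 26.7%, and 15.5% and 8.92%.

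The counts by role stand against 45.3% of all probes higher and 21.3% lower in the first period. In the second period these shares were 27% higher and 44.6% lower. Among probes detected throughout a compared stage the shares were 30.7% higher and 31.1% lower, then 40.1% higher and 26.7% lower. The RAS and MAPK genes were mostly lower and then higher, with 6 of 11 lower and 2 higher in the first period. In the second period 8 were higher and 1 lower. Of the 10 detected throughout a compared stage, 6 were lower and 1 higher, then 8 higher and 0 lower. The kinase MAP2K1 changed by -1.69 (SE 0.11, adjusted p = 3.07e-09) and 1.68 (SE 0.11, adjusted p = 8.40e-10), its relative MAP2K2 by -0.59 and 1.05, and the transcription factor ELK1 changed by -1.42 and 1.02. Of the 33 genes of the phosphoinositide 3-kinase, AKT and mTOR branch, 11 were higher and 10 lower in the first period. In the second period 13 were higher and 11 lower. Of the 25 in this branch detected throughout a compared stage, 7 were higher and 9 lower, then 12 higher and 6 lower. There the mTOR activator RHEB changed by -1.25 and 1.15 and the kinase AKT1 by -1.10 and 1.11. The mTOR inhibitor TSC1 changed by 0.66 and -0.43, and the transcription factor FOXO1, which insulin and IGF signalling holds out of the nucleus, by 0.59 and -0.70. Of the 11 adaptors and associated proteins, 8 were higher and 0 lower in the first period, then 1 higher and 6 lower. Of those detected throughout a compared stage, 6 of 9 were higher and 0 lower, then 1 of 7 higher and 2 lower. The phosphatase PTPN11 changed by 1.64 and -1.69. The adaptor GRB10, which restrains the receptors, changed by 1.56 and -2.32, and the exchange factor SOS1 by 0.96 and -1.25. GRB10 was well above background on 9, 7 and 7 arrays at the early, middle and late stages, and SOS1 on 9, 8 and 8. Neither was thus detected throughout the middle or the late stage. Of the 3 IGF2 mRNA-binding proteins, IGF2BP3 fell by 0.89 in the first period (adjusted p = 0.0243), whereas IGF2BP2, well above background on 8, 7 and 7 arrays, rose by 1.57 (adjusted p = 1.38e-05) and then fell by 1.89. IGF2BP1 was called higher and then lower too, but was well above background on no array.

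In the total period EIF4EBP1, the translation repressor that mTOR phosphorylates, rose by 0.80 (SE 0.10, adjusted p = 1.69e-05), with steps of 0.44 and 0.36 in the first and second periods. IDE, a protease that degrades insulin and IGF2, rose by 0.69, PDK1 by 0.67 and the kinase MAPK3 by 0.64. PDK1, which the counts of the phosphoinositide 3-kinase, AKT and mTOR branch include, is a different gene from PDPK1. PDPK1 is also on the list and was not called in the total period (0.12, adjusted p = 0.491). MTOR fell by 0.51 (adjusted p = 0.0454). PIK3CD and INPP5D, a kinase and a phosphatase of phosphoinositides found mainly in leukocytes, fell by 0.90 and 0.78. Of the 16 leukocyte markers 0 were higher, 3 lower and 13 not called in the same period (median change -0.02). PTPRC fell by 0.73, CD3E by 1.07 and CD8A by 1.29, while CD3G (0.75) and CD68 (0.40) were not called. The summed leukocyte markers (12 of the 16 on the array) ranged from 5.71 to 6.74, from 5.81 to 6.35 and from 5.90 to 6.56 at the early, middle and late stages, with medians of 6.08, 6.18 and 6.27. The part of leukocyte content in these changes was not tested.

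Among the other ligands and binding proteins of the list, IGFBP7, a related protein that binds IGFs weakly, was well above background on all 27 arrays and not called in any period (-0.07, 0.21 and 0.15). IGFBP2 was well above background on 8, 8 and 9 arrays and not called either (0.51, -0.41 and 0.10). IGFBP1 and the acid-labile subunit IGFALS were well above background on no array. The IGFBP2 and IGFBP5 probes lie 12.1 kb apart on chromosome 2, and the IGFBP1 and IGFBP3 probes 11.6 kb apart on chromosome 4. PAPPA, the protease that cleaves IGFBP4, and IRS2 were not analysed here.

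When the slide was added as a random term, with a correlation of 0.292 between arrays of a slide, some members kept their calls and others lost them. In the first period IGFBP5 (1.13, adjusted p = 0.00848) and IGFBP6 (1.43, adjusted p = 0.0138) stayed DEGs, whereas IGF2R (-0.38, adjusted p = 0.0572), IGFBP3 (-0.54, adjusted p = 0.169) and IGF1R (-0.36, adjusted p = 0.271) did not. In the second period IGFBP4 (-2.02, adjusted p = 1.35e-06), IGF2R (0.81, adjusted p = 0.00129) and IGFBP5 (-1.03, adjusted p = 0.0226) stayed DEGs, whereas IGFBP3 (0.79, adjusted p = 0.0713), IGFBP6 (-0.93, adjusted p = 0.122) and IGF1R (0.43, adjusted p = 0.243) did not. In the total period IGFBP4 stayed a DEG (-2.19, adjusted p = 3.20e-06) and IGF2R did not (0.43, adjusted p = 0.324). Within slide 2, where 1 early array stood against 7 middle arrays, the first-period changes of IGFBP5 and IGFBP6 were 1.16 (adjusted p = 0.317) and 2.28 (adjusted p = 0.337), and those of IGF2R and IGF1R were -0.20 (adjusted p = 0.783) and -0.30 (adjusted p = 0.829). With a fixed slide term they were 2.41, 1.74, 0.0052 and -0.63, with adjusted p values of 0.191, 0.454, 0.996 and 0.749.

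**Figure D5:**
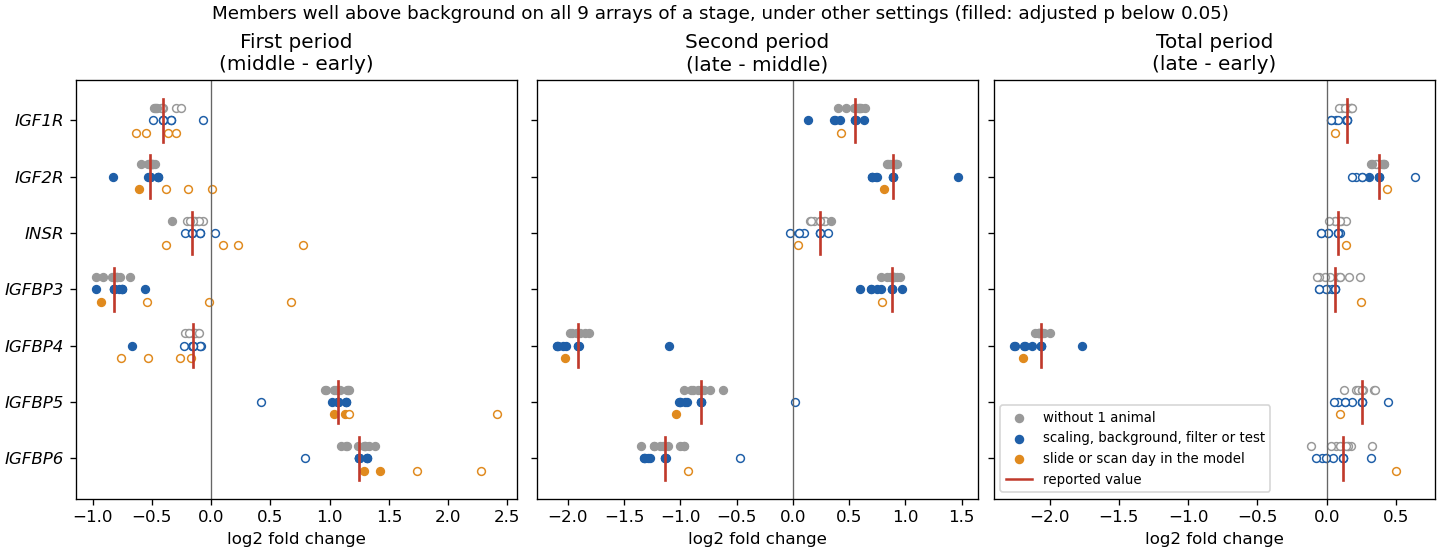
Log2 fold change (x axis) of the 7 members detected throughout at least 1 stage, in the first, second and total periods, under other settings: grey for leaving out 1 animal, blue for another scaling, background, filter or test, and orange for the slide or scan day in the model; filled circles have an adjusted p below 0.05 and red bars are the reported values. IGFBP4 stayed between -2.26 and -1.77 in the total period, whereas the first-period changes of IGF2R and IGFBP3 crossed 0 once a fixed slide term was fitted.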

How the data were processed

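RNA of 27 RE samples was labelled with cyanine 3. The authors scanned the arrays and extracted spots with Agilent Feature Extraction (11.0.1.1 per the file headers, 9.5 per the submitters' processing notes). The deposited values used were the processed signal, a background-subtracted intensity, the mean and background intensities, the score of 0 or 1 for spots well above background, and a series table of log2 values that the authors scaled near the 75th percentile (within 0.0207, column medians -3.07 to -2.60).

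For each array the spots of a probe were averaged as log2 values, outlier spots were left missing, and the median of the 15008 non-control probes was subtracted. limma 3.58.1 in R 4.3.3 fitted 1 mean per stage with the animal as a block over all 27 arrays, with Benjamini-Hochberg adjustment (threshold 0.05). The labels give each sample a number within its stage and do not name animals. Samples with the same number were taken as the same animal, and all within-animal counts and tests rest on this. Same-animal deviations by these numbers correlated at 0.158 on average (-0.151 to 0.461, 27 pairs), against -0.02 for different animals. All 10 members are named. Of the pathway list the 5 largest rises and falls called among probes detected throughout a compared stage are named per period, with IGFBP2, IGFBP7 and GHR, and the 3 probes most similar to a member measured on all arrays. Some items of this rule are not reported here. Members and lists were chosen with earlier results of these data known. The script was tested on simulated data. The number of arrays limits the precision. Alternatives were other scalings, normexp correction (offset 50), a filter on dim probes, outlier spots kept, the series table, no animal block, the slide in the model, the methods' paired test and leaving out each animal.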

Additional observations from a re-analysis of the deposited data

Results flagged for a closer look

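In 30 groups of 9 animals (10 members at 3 stages) 1 held an animal far from the others, where chance gives about 1 in 20. IGFBP5 of animal 9 at the late stage was at 5.25 (log2 relative to the array median) and the nearest animal at 6.03, a gap of 0.65 of the range of the group. That array was the only one on slide 5, and the part of the slide was not tested.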

How the results depend on the processing

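Of the 3 counts of member DEGs (7, 8 and 2), the first was 4 with cyclic loess (5 members tested), 4 without dim probes (7 members tested), 4 with the slide as a random term, 0 with it as a fixed term (1 at an unadjusted p under 0.05 by limma) and 0 within slide 2 (0 unadjusted). Under the last 2 settings limma called 1 and 7 of all probes. The second count was 5 with cyclic loess (5 members tested) and 4 under the random slide term, and the total count was 1 with the 75th percentile, quantile normalization, cyclic loess, normexp, the series table and the random slide term, IGFBP4 being the DEG in each. Leaving out each animal gave 6 to 8, 7 to 8 and 1 to 2 DEGs. Without the animal block (no pairing) the counts were 6, 7 and 2, with IGF1R lost in the first (adjusted p = 0.0549) and IGF1 in the second period (adjusted p = 0.101), and no other call was lost. The methods' t-test gave 6, 7 and 3 at an unadjusted threshold and 6, 7 and 2 after Benjamini-Hochberg adjustment. A fit to the first scan day alone, chosen after seeing the data, gave 6 in the first period.

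Of the called changes, direction turned for IGF2R (0.0052) and IGFBP3 (0.68) in the first period with the slide as a fixed block, for IGF1 in the second period with quantile normalization (0.18) and for IGFBP5 in the second period with normexp (0.018), and the cause was not tested. IGFBP4 was called in the first period with normexp (-0.66). Of the pathway list, the 31 higher in the first period were 13 with cyclic loess and 20 without dim probes, the 23 higher in the second 15 with cyclic loess, the 25 lower in the second 16 with quantile normalization, 10 with cyclic loess and 14 without dim probes, the 11 higher in the total period 7 with quantile normalization, 7 with cyclic loess and 3 with normexp, and the 4 lower 2 with quantile normalization and 2 with cyclic loess. Cyclic loess and the filter tested fewer list genes (40 and 50). Of the 12 pair differences 2 passed, 5 with normexp and 2 to 2 on leaving out each animal. The slide as a fixed block could not be fitted for the second and total periods, and no member had another probe. Signal near background limits IGF1, IGF2 and IRS1.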
